A study of Mus musculus with 6 samples.

Results

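Genes of ribosomal RNA processing and of the ribosome are described here through 8 members: Ebna1bp2, Pa2g4, Utp23, Imp4, Rrp36, Mphosph6, Exosc4 and Rps28. They were chosen by name from the authors' deposited table, which keeps only probe sets with an unadjusted p under 0.05 between Gfi1 KD and Gfi1 KI. Each member had 1 probe set there, so 8 of the listed probe sets, which are 854 lower and 1135 higher ones among 45101 on the array, are members. All 8 carry the words rRNA processing in the deposited Gene Ontology text.

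The RNA came from whole bone marrow cells of adult leukemic mice of the same age, taken after lysis of the erythrocytes, and 200 ng of it was labelled for each Affymetrix expression array. The Gfi1 KD group and the Gfi1 KI group held 3 arrays each, with 1 animal per array. All 6 animals carried the Vav-1 Nup98/HoxD13 transgene, in which the Vav-1 promoter drives a leukemic fusion protein in blood cells, so no group without the transgene was compared. As background from outside the labels, the human coding sequence of GFI1, a transcriptional repressor of blood cell development, replaces the mouse sequence in the knock-in allele, and the knock-down allele expresses it at a reduced level. Gfi1 itself was not among the listed probe sets, so its level was not checked. In whole marrow, fewer cells of a type and less RNA per cell cannot be told apart.

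Ribosomes are built in the nucleolus, where RNA polymerase I makes a long precursor RNA that is folded, modified and cut into the RNAs of the small (40S) and large (60S) subunits. The small subunit processome acts on the 5′ part of the precursor, 60S assembly factors act on the other part, and the RNA exosome trims 3′ ends and degrades what is removed. Growing and dividing blood precursors make many ribosomes, and output is lower in mature granulocytes.

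Of these genes, 6 had lower signals in Gfi1 KD marrow, and Rrp36 and Rps28 had higher ones. Among the 6 lower members, the Gfi1 KI mean was 1.12-fold (Exosc4) to 1.48-fold (Pa2g4) above the Gfi1 KD mean in the RMA signals, the authors' log2 summary of the probes of each probe set. Rrp36 was 1.27-fold higher and Rps28 1.04-fold higher in Gfi1 KD. Because the same arrays and the same contrast chose the members, these differences are descriptions and carry no test. The authors' deposited table gives unadjusted p-values of 0.0311 (Mphosph6) to 0.04996 (Rrp36) for them, and a step-up adjusted p of 0.911 for every member. Over all listed probe sets its unadjusted p ran from 4.69e-06 to 0.049995 and its adjusted p from 0.211 to 0.911. Rps28, with a deposited p of 0.0494, and Rrp36 lay just inside the limit of 0.05, and the 43112 rows outside it hold no values and were not analysed here.

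The listed probe sets that were lower in Gfi1 KD made up 1.89% of all probe sets, and the higher ones 2.52%. Of the listed probe sets 42.9% were lower, against 6 of the 8 members. The median difference, Gfi1 KD minus Gfi1 KI, was -0.40 log2 over the members and 0.14 log2 over all listed probe sets. The median listed probe set differed 1.20-fold in either direction, so the folds of Pa2g4, Ebna1bp2, Utp23, Mphosph6, Imp4 and Rrp36 lay above that median and those of Exosc4 and Rps28 below it. In the RMA signals the groups did not overlap for any member, which was also so for 99.9% of the listed probe sets, so nothing is read from that count.

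The deposited MAS5 signals, a second summary of the same arrays on a linear scale, cover all probe sets. limma on their log2 values called 0% of 22519 probe sets at an adjusted p under 0.05. Its smallest adjusted p was 0.314, and 1217 probe sets had an unadjusted p under 0.05. The authors' analysis gave no listed probe set an adjusted p under 0.05 either. All 8 members passed the level filter of this test, a mean log2 signal of 6.95. In the MAS5 signals all 8 members differed in the same direction as in the RMA signals, and 4 of 8 had groups that did not overlap. For 3 of the 6 lower members the highest Gfi1 KD signal was under the lowest Gfi1 KI signal, against 4.57% of all probe sets tested. For 1 of the 2 higher members the lowest Gfi1 KD signal was over the highest Gfi1 KI signal, against 6.77% of the probe sets tested. Since MAS5 and RMA summarise the same scans, these counts are not independent of how the members were chosen.

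**Figure D1:**
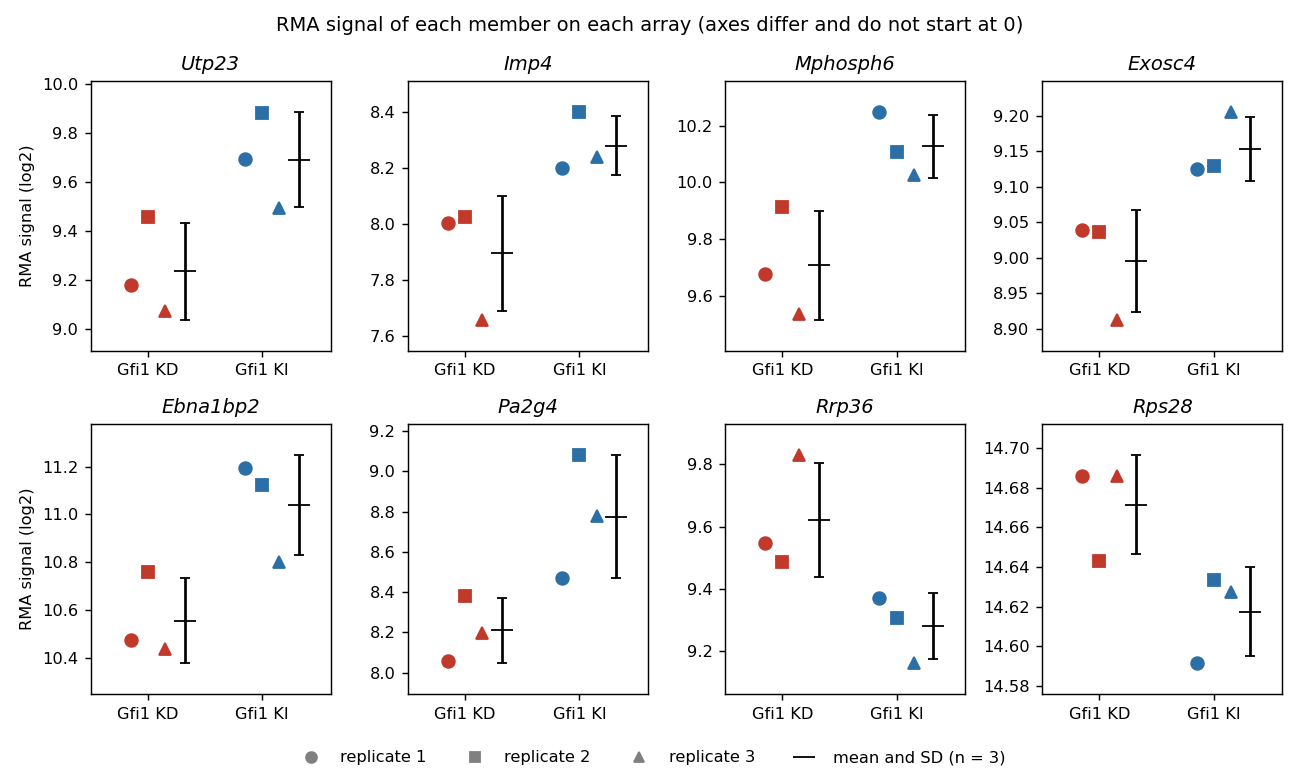
RMA signal (log2) of each member on each array, with Gfi1 KD on the left and Gfi1 KI on the right of each panel; symbols mark the replicate, and the bar shows the mean and SD (n = 3). In the 6 lower members every Gfi1 KD array lies below every Gfi1 KI array, with a gap of 0.04 (Utp23) to 0.18 (Imp4) log2, and in Rrp36 and Rps28 every Gfi1 KD array lies above.

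The start regions of 3 members are shown because they differ in the short motifs that they hold, among members that differed in direction: Ebna1bp2 and Imp4 were lower in Gfi1 KD, and Rrp36 higher. Each run is 130 bases before the start and 20 bases from it, on the strand of the gene, from RefSeq (GRCm38.p6). They lie at chr4:118620669-118620818 (plus strand), chr1:34439699-34439848 (plus strand) and chr17:46674307-46674456 (minus strand), in the order printed. Capitals mark whole matches, on either strand, to CACGTG (the E-box bound by Myc), CCGGAAG (bound by ETS factors), CCAAT (bound by NF-Y) and AAATC, which holds the AATC core of Gfi1 sites. AATC without the A before it was not searched for and is not marked.
Ebna1bp2: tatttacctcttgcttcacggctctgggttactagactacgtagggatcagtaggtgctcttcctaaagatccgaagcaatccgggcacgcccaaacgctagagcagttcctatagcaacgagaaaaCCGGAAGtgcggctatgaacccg
Imp4: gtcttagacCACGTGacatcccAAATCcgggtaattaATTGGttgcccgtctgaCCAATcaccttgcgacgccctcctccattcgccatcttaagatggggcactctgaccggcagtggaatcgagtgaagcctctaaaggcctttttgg
Rrp36: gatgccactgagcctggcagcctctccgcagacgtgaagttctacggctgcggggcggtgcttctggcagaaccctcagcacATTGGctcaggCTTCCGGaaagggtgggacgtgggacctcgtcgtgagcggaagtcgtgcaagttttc

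Of the 8 members, 6 matched the RefSeq promoter table, which holds 300 bases per start. Imp4 held a CACGTG 121 bases before its start, an AAATC 108 bases before it, and a CCAAT on each strand. Ebna1bp2 held CCGGAAG across its start and a second copy that begins at base 18 of the transcript and runs past the printed end. Rrp36 held CCGGAAG on the opposite strand, 37 bases before its start, and CCAAT on the opposite strand, 48 bases before it. In the full 300 bases Rrp36 and Rps28 also held an AAATC each, outside the printed runs, and Mphosph6 and Pa2g4 held none of these motifs. No motif overlapped another. Among all 32851 promoters of the table, 7.15% held CACGTG, 8.86% held CCGGAAG, 37.4% held CCAAT and 35.9% held AAATC. A match describes the letters and shows no binding.

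The 60S factors among the members were Ebna1bp2 and Pa2g4. Ebna1bp2, the homologue of a yeast nucleolar protein needed for the large subunit (chr4:118620799-118627776, GRCm38), had RMA signals of 10.47, 10.76 and 10.44 log2 in Gfi1 KD, against 11.19, 11.12 and 10.80 log2 in Gfi1 KI. The highest Gfi1 KD array, replicate 2, lay 0.04 log2 below the lowest Gfi1 KI array, replicate 3. The means were 10.56 ± 0.18 log2 in Gfi1 KD and 11.04 ± 0.21 log2 in Gfi1 KI (SD, n = 3 each), a difference of -0.48 ± 0.16 log2 (SE), or 1.40-fold lower in Gfi1 KD. Its MAS5 signals were 3060, 4551 and 3293 in Gfi1 KD and 5167, 5574 and 4264 in Gfi1 KI. There Gfi1 KD replicate 2 exceeded Gfi1 KI replicate 3, so the groups overlapped, and the fold was 1.39.

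Pa2g4, also called Ebp1, is a nucleolar and ribosome-associated protein linked to growth control (chr10:128557766-128565934). It had RMA signals of 8.06, 8.38 and 8.20 log2 in Gfi1 KD, against 8.47, 9.08 and 8.78 log2 in Gfi1 KI. The groups were apart by 0.09 log2, and the Gfi1 KI arrays were spread most widely among the members, with an SD of 0.30 log2 against 0.16 log2 in Gfi1 KD. The difference was -0.56 ± 0.20 log2 (SE), 1.48-fold lower in Gfi1 KD. In MAS5 signals, Gfi1 KD arrays gave 814, 933 and 849 and Gfi1 KI arrays 1129, 1504 and 1386. These did not overlap either, and the fold was 1.54.

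The members of the small subunit processome differed in direction. Utp23, which helps to release the snR30 small nucleolar RNA from pre-ribosomes in yeast (chr15:51877441-51884622), had RMA signals of 9.18, 9.46 and 9.07 log2 in Gfi1 KD, against 9.70, 9.88 and 9.50 log2 in Gfi1 KI. Gfi1 KD replicate 2 came within 0.04 log2 of Gfi1 KI replicate 3, the narrowest gap among the 6 lower members. The means were 9.24 ± 0.20 log2 in Gfi1 KD and 9.69 ± 0.19 log2 in Gfi1 KI (SD, n = 3 each), 1.37-fold lower in Gfi1 KD. In MAS5 signals, Gfi1 KD arrays gave 1364, 1519 and 1144 and Gfi1 KI arrays 1587, 1915 and 1536. The groups were apart by 0.02 log2 in MAS5, and the fold was 1.25.

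Imp4, a protein that binds the U3 small nucleolar RNA and helps it pair with the precursor (chr1:34439829-34445747), had RMA signals of 8.01, 8.02 and 7.66 log2 in Gfi1 KD, against 8.20, 8.40 and 8.24 log2 in Gfi1 KI. Replicate 3 was the lowest of the Gfi1 KD arrays by far, and the gap between the groups, 0.18 log2, was the widest among the lower members. The difference was -0.38 ± 0.13 log2 (SE), 1.30-fold lower in Gfi1 KD. Its MAS5 signals were 550, 389 and 326 in Gfi1 KD and 586, 588 and 571 in Gfi1 KI. The Gfi1 KI arrays lay close together and Gfi1 KD replicate 1 came near them, and the fold was 1.41.

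Rrp36, a factor for early cleavages of the precursor (chr17:46666323-46674326), was the exception in this set. It had RMA signals of 9.55, 9.48 and 9.83 log2 in Gfi1 KD, against 9.37, 9.31 and 9.16 log2 in Gfi1 KI. All Gfi1 KD arrays lay above all Gfi1 KI arrays, by 0.11 log2 or more. The difference was 0.34 ± 0.12 log2 (SE), 1.27-fold higher in Gfi1 KD. The MAS5 signals, 1706, 1608 and 2071 in Gfi1 KD and 1380, 1292 and 1210 in Gfi1 KI, were apart as well, with a fold of 1.38. Mea1, a neighbour within 10000 bases of Rrp36, was the only listed gene found so near a member, and its deposited ratio of Gfi1 KD to Gfi1 KI was 0.867, the opposite direction.

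**Figure D2:**
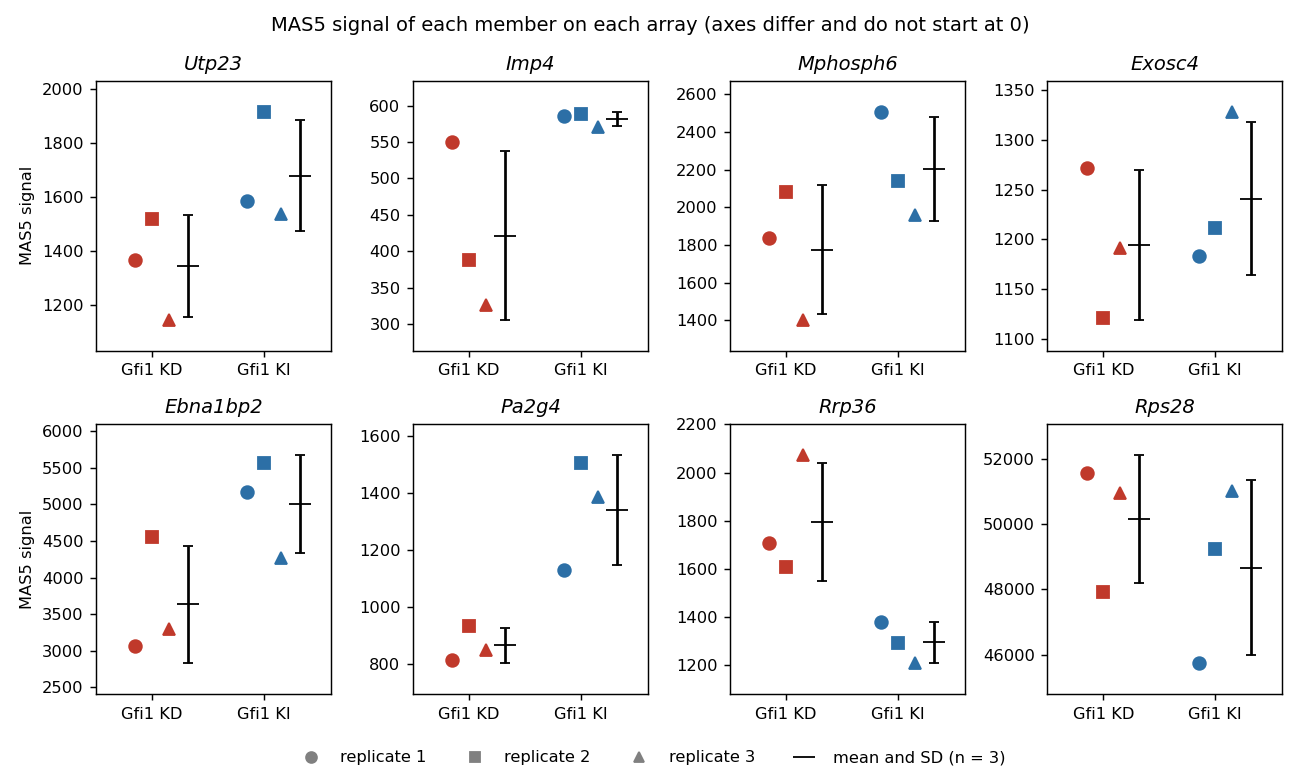
MAS5 signal of each member on each array, with Gfi1 KD on the left and Gfi1 KI on the right; symbols mark the replicate, and the bar shows the mean and SD (n = 3). The groups lie apart in Utp23, Imp4, Pa2g4 and Rrp36 and overlap in Mphosph6, Exosc4, Ebna1bp2 and Rps28.

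Both exosome members were lower in Gfi1 KD. Mphosph6 is a cofactor that joins the exosome for the final trimming of the 5.8S RNA (chr8:117791637-117801974). Its RMA signals were 9.68, 9.92 and 9.54 log2 in Gfi1 KD, against 10.25, 10.11 and 10.03 log2 in Gfi1 KI. The groups were apart by 0.11 log2, with Gfi1 KD replicate 2 nearest to the Gfi1 KI arrays. The means were 9.71 ± 0.19 log2 in Gfi1 KD and 10.13 ± 0.11 log2 in Gfi1 KI (SD, n = 3 each), 1.34-fold lower in Gfi1 KD. In MAS5 signals, 1839, 2083 and 1404 in Gfi1 KD and 2506, 2141 and 1962 in Gfi1 KI, the groups overlapped and the fold was 1.25.

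Exosc4, also called Rrp41, is a subunit of the ring of the exosome core (chr15:76327397-76330670). It had RMA signals of 9.04, 9.04 and 8.91 log2 in Gfi1 KD, against 9.13, 9.13 and 9.20 log2 in Gfi1 KI. The groups lay 0.09 log2 apart with little spread in either, and the difference was -0.16 ± 0.05 log2 (SE), 1.12-fold lower in Gfi1 KD. Its MAS5 signals were 1271, 1121 and 1192 in Gfi1 KD and 1183, 1211 and 1328 in Gfi1 KI. Gfi1 KD replicate 1 was then above 2 of the Gfi1 KI arrays, and the difference was -0.05 ± 0.07 log2 (SE), smaller than its error. By the annotation Exosc4 overlaps Oplah, and signal of one gene on the probes of the other was not tested.

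Rps28, a protein of the 40S subunit itself, had RMA signals of 14.69, 14.64 and 14.69 log2 in Gfi1 KD, against 14.59, 14.63 and 14.63 log2 in Gfi1 KI. Its 6 arrays covered only 0.09 log2, and the groups were 0.01 log2 apart. The difference was 0.05 ± 0.02 log2 (SE), 1.04-fold higher in Gfi1 KD. In MAS5 signals, Gfi1 KD arrays gave 51573, 47925 and 50945 and Gfi1 KI arrays 45753, 49244 and 50994. These overlapped, and the difference of 0.04 ± 0.06 log2 (SE) was smaller than its error. The annotation of this probe set lists 27 transcripts that may cross-hybridise, and its recorded alignment is on chromosome 16 (17152193 to 17152544) while the gene lies at chr17:33823036-33824562. The Rps28 values are therefore uncertain as a measure of this gene. The same notes list 2 such transcripts for Ebna1bp2 and 1 each for Utp23 and Rrp36.

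In the RMA signals, most pairs of lower members deviated alike among animals of 1 genotype. After the mean of its genotype was removed from each array, the Pearson r between lower members averaged 0.43 over 15 pairs (6 arrays, with 2 means removed), from -0.09 for Ebna1bp2 with Exosc4 to 0.87 for Ebna1bp2 with Utp23. Of these pairs, 13 were above 0. Mphosph6 and Utp23 had an r of 0.74 and Imp4 and Utp23 one of 0.72. With the lower members, the r of Rrp36 ranged from -0.98 (Exosc4) to -0.02 (Ebna1bp2). That of Rps28 ranged from -0.90 (Mphosph6) to 0.23 (Pa2g4), and the largest Rps28 deviation in size was only -0.03 log2. All these values share the same 6 arrays and their scaling. In the MAS5 signals the average over the 15 pairs of lower members was 0.11, with 8 pairs above 0, so the pattern depended on the summary used. It also rested on single arrays: leaving out Gfi1 KD replicate 3 gave an average of 0.15, and leaving out replicate 2 of that genotype gave 0.18.

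In Gfi1 KD, replicate 2 had the highest value of its genotype in 5 of the 6 lower members and replicate 3 the lowest in 5. Averaged over the 6 lower members, the deviations were -0.03, 0.16 and -0.13 log2 in Gfi1 KD and -0.02, 0.11 and -0.09 log2 in Gfi1 KI. The same Gfi1 KD replicate 2 had the lowest median MAS5 signal of all arrays (117.0) and replicate 3 the highest (148.1). The other 4 arrays had medians of 128.6 to 139.3. The part of array brightness in the shared variation was not tested.

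**Figure D3:**
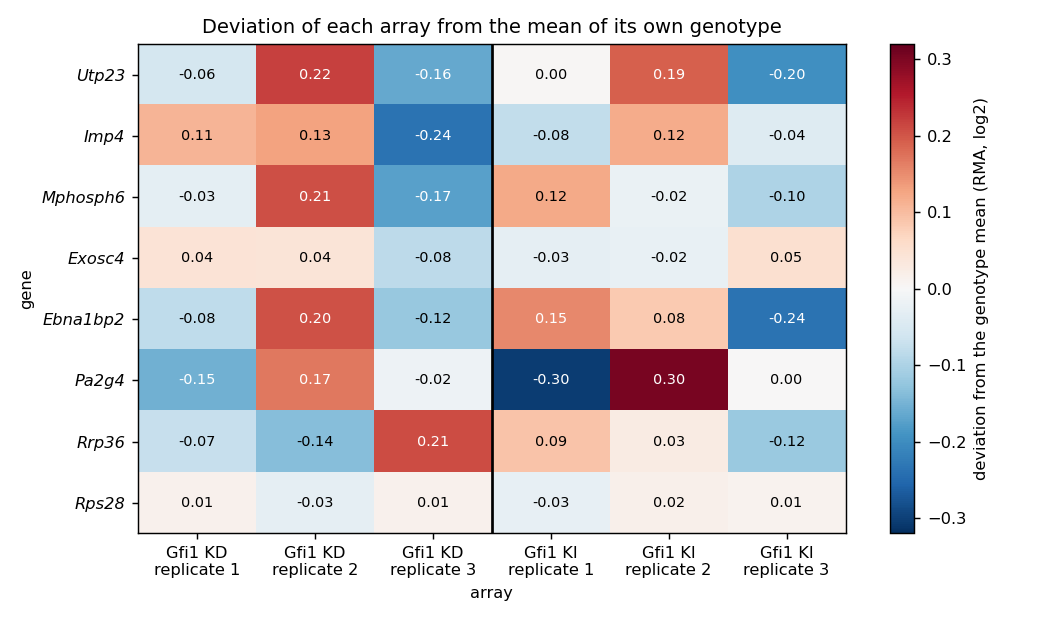
Deviation of each array from the mean of its own genotype (RMA, log2) for each member, with the Gfi1 KD arrays left of the line and the Gfi1 KI arrays right of it; red is above and blue below the mean. Gfi1 KD replicate 2 is above and replicate 3 below the mean in all 6 lower members, and the Gfi1 KI arrays are mixed.

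Psme3, Srsf10 and Smc4 were the named genes of the deposited table, outside the members, with RMA deviations most like the mean of the 8 members. Likeness was measured by Pearson r over the 6 arrays. Psme3, which encodes the gamma subunit of the proteasome activator PA28, had an r of 0.998 and RMA signals of 8.93, 9.23 and 8.84 log2 in Gfi1 KD, against 9.43, 9.68 and 9.29 log2 in Gfi1 KI. Srsf10, a splicing factor, had an r of 0.983 and Smc4, a condensin subunit, one of 0.979. In the deposited ratios Psme3 was 1.38-fold, Srsf10 1.17-fold and Smc4 1.38-fold lower in Gfi1 KD. The r had a median of -0.09 over the other 1981 listed probe sets, and 2.57% of them exceeded 0.9.

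Only 4.41% of all probe sets are listed, so most genes of any list are absent from the deposited table. The 5 lists of assembly factors (60S factors, small subunit processome and 40S assembly, exosome, RNA polymerase I and snoRNP proteins) held 165 genes. Of these, 12 were listed. In RMA, 11 were lower and 1 higher in Gfi1 KD, with a median of -0.31 log2, where 42.9% of all listed probe sets were lower. Of these 12 genes, 7 are members, chosen because they were listed, and 5 are not. Among the non-members, Gnl2 and Riok1 were also lower in MAS5, and Mtrex, Ddx54 and Spata5 were higher there. None of 25 genes of RNA polymerase I and its factors was listed, and none of 17 box C/D and H/ACA snoRNP genes, and nothing is read from these counts. Because only listed probe sets are paired with a gene, the signals of the other genes could not be read here.

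The 60S list had 5 of 56 genes listed, all lower in RMA. Gnl2, a nucleolar GTPase of 60S maturation, had RMA signals of 8.90, 8.90 and 9.09 log2 in Gfi1 KD and 9.65, 9.37 and 9.21 log2 in Gfi1 KI. It was 1.37-fold lower in Gfi1 KD, and 1.24-fold lower in MAS5 with overlapping groups. Ddx54, a nucleolar DEAD-box helicase, was 1.13-fold lower and Spata5, a AAA ATPase of 60S maturation, 1.08-fold lower in RMA, and both were higher in MAS5 (1.03-fold and 1.80-fold). Their direction thus depended on the summary. The mean MAS5 signal of Spata5 was below the level filter and that of Ddx54 above it.

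Among 52 genes of the small subunit list, 4 were listed, 3 lower and 1 higher in RMA. Its only non-member, Riok1, a kinase of late 40S maturation, had RMA signals of 9.91, 9.84 and 9.89 log2 in Gfi1 KD, against 10.02, 10.13 and 10.20 log2 in Gfi1 KI. The groups were apart, and the fold was 1.18 lower in Gfi1 KD in RMA and in MAS5. The exosome list had 3 of 17 genes listed, all lower in RMA. Its non-member, Mtrex (deposited as Skiv2l2), the helicase that feeds RNA to the nuclear exosome, was 1.18-fold lower in RMA but 1.37-fold higher in MAS5, at signals below the level filter.

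Of the cytosolic ribosomal proteins, Rps28 is described above. Another 6 probe sets annotated as ribosome constituents are assigned to several genes and are not named, and all 6 were higher. They hold 5 gene assignments. A single probe set was 1.71-fold higher, and the others were 1.02-fold to 1.11-fold higher. The 6 listed mitochondrial ribosomal protein genes with the same annotation were all lower, 1.19-fold to 1.45-fold. Of all listed probe sets, 42.9% were lower.

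The deposited Gene Ontology text adds a few genes. Of 11 listed probe sets with rRNA processing, 8 were the members. In the RMA ratios 9 of the 11 were lower and 2 higher, where 42.9% of all listed probe sets were lower. Besides the members and Mtrex, the 11 held Mterfd2, a mitochondrial ribosome assembly factor (1.30-fold lower), and Gtf2h5, a subunit of the general factor TFIIH (1.09-fold lower). Of 7 listed probe sets with ribosome biogenesis, 4 of them members, 4 were lower and 3 higher in RMA. Mina, a ribosomal oxygenase, was 1.18-fold higher and Ipo9, an importin that can carry ribosomal proteins into the nucleus, 1.32-fold higher in Gfi1 KD.

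**Figure D4:**
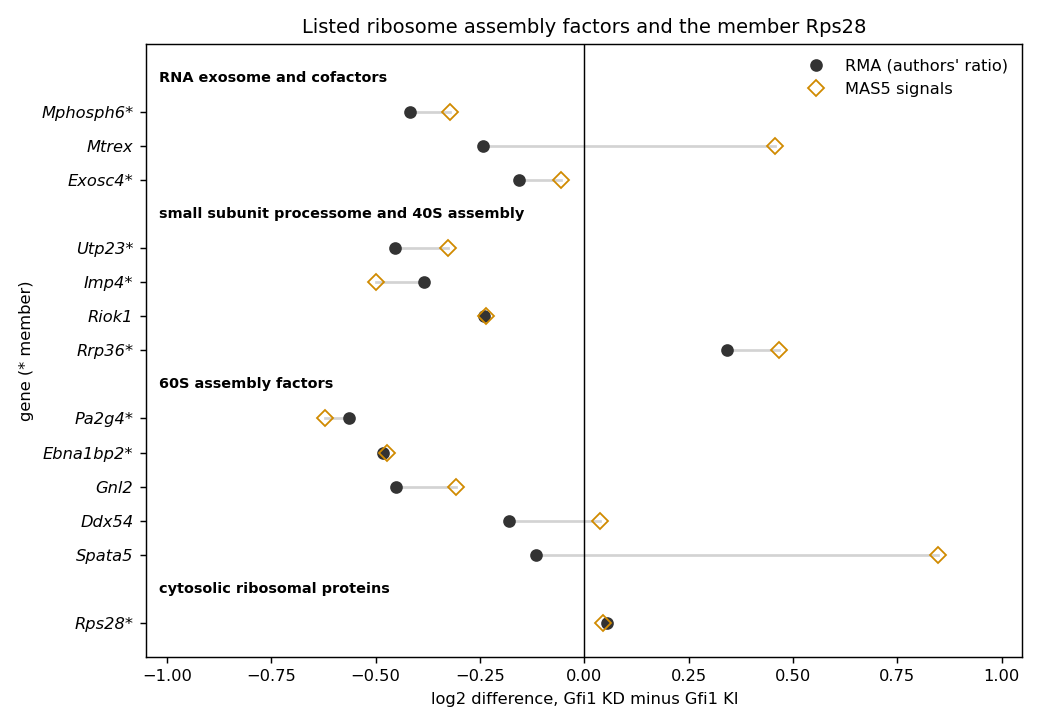
Log2 difference, Gfi1 KD minus Gfi1 KI, of the listed assembly factors and Rps28, grouped by list; filled circles are the authors' RMA ratios, open diamonds the MAS5 signals, and an asterisk marks a member. Members lie on the same side of 0 in both summaries, and Mtrex, Ddx54 and Spata5 do not.

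Markers of mature blood cells differed in the same contrast, and those given here were listed by the same p. Of 16 late neutrophil markers, 4 were listed (Ltf, Ceacam10, Lrg1 and Itgb2l), all lower, and their summed MAS5 signal lay between 458 and 4960 in Gfi1 KD, and between 21739 and 49784 in Gfi1 KI. Of 15 monocyte and macrophage markers, 6 were listed (Csf1r, Ctss, Adgre1, Cx3cr1, Ccr2 and Hmox1), all higher, and their sum lay between 57844 and 83717 in Gfi1 KD, and between 28843 and 43743 in Gfi1 KI. Neither pair of ranges overlapped, but the same p chose these markers, so nothing is read from that. No listed marker was at 0.

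Markers of dividing cells, where ribosome production is high, were listed for 4 of 17 genes. Cenpa, a centromere histone, was 2.32-fold lower, the centromere protein gene Cenpf 1.35-fold lower and Top2a, the topoisomerase of mitotic chromosomes, 1.32-fold lower in Gfi1 KD, while the cyclin gene Ccnd1 was 1.48-fold higher. The sum of the 4 in MAS5 lay between 3570 and 3839 in Gfi1 KD, and between 3884 and 4511 in Gfi1 KI, without overlap. Taken singly, Cenpf and Top2a overlapped in MAS5. The same p chose these genes, so nothing is read from the separation of the sum. Among the other lists, 1 of 14 erythroid markers was listed and was lower (Epb41), while 2 of 10 B cell markers (Pax5 and Fcrla), 1 of 10 T and NK cell markers (Cd28), 1 of 6 primary granule markers (Mgst1) and 1 of 7 stromal and endothelial markers (Pecam1) were higher. None of 6 megakaryocyte and none of 7 mast cell, basophil and eosinophil markers was listed.

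Within a genotype, the mean RMA deviation of the 6 lower members was set against that of each marker list (Pearson r, 6 arrays). The r was 0.65 with the listed dividing-cell markers, -0.73 with the monocyte and macrophage markers and 0.34 with the late neutrophil markers. The other lists with a listed gene gave 0.95 (B cell) and 0.85 (primary granule), both higher in Gfi1 KD while the 6 members were lower, and 0.35 (erythroid), -0.30 (T and NK cell) and -0.33 (stroma and endothelium). The B cell and primary granule values rest on Pax5, Fcrla and Mgst1, whose mean MAS5 signals were below the level filter, so they are uncertain. Genes of 1 list differed among themselves. The dividing-cell markers gave 0.82 for Cenpf, 0.41 for Cenpa, 0.13 for Top2a and -0.49 for Ccnd1. The monocyte and macrophage markers gave -0.86 for Adgre1, -0.84 for Csf1r, -0.83 for Ctss, -0.54 for Cx3cr1, -0.33 for Hmox1 and 0.17 for Ccr2. These values share the arrays and their scaling. They were computed in RMA only, and the mean pairwise r of the lower members themselves was 0.43 in RMA and 0.11 in MAS5. The part of cell makeup in the members' differences was not tested.

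The array least like the others was Gfi1 KI replicate 2, whose median correlation with them was 0.905, against 0.919 to 0.932 for the other 5. Without it every member kept its direction in RMA and in MAS5 signals. This also held with each of the other 5 arrays left out in turn. In RMA that could not have failed, because the groups of every member lay apart. The same applies in MAS5 to the 4 members whose groups did not overlap, so only the 4 overlapping members could have changed direction. With any 1 array left out, the RMA difference of Pa2g4 was -0.72 to -0.41 log2 and that of Ebna1bp2 -0.60 to -0.41 log2. In MAS5 the difference of Mphosph6 was -0.16 log2 without Gfi1 KD replicate 3, against -0.32 log2 with all arrays. Without the same array that of Imp4 was -0.33 log2, against -0.50 log2, and that of Utp23 -0.22 log2, against -0.33 log2. Imp4, Mphosph6, Utp23, Exosc4 and Rps28 were the members whose MAS5 difference shrank by more than 1.5 times when an array was left out. Exosc4 was at -0.0049 log2 without Gfi1 KI replicate 3 and at -0.0099 log2 without Gfi1 KD replicate 2, and Rps28 at 0.00031 log2 without Gfi1 KI replicate 1.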

How the data were processed

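The authors' deposited table holds log2 RMA signals of the 6 arrays, an analysis-of-variance p-value of kd against wt with its step-up adjustment, and the kd to wt ratio, per the file headers; wt was read as Gfi1 KI. The intensity values are deposited MAS5 signals, per the submitters' processing notes; the versions and settings are not given in the sources used here. Groups came from the genotype labels.

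The members, gene lists, tests and alternatives were chosen with earlier results of these data known. Members were matched by exact symbol. RMA differences subtract the Gfi1 KI mean from the Gfi1 KD mean, and each SE comes from the SDs of the groups. MAS5 signals were floored at 1 before log2, and MAS5 folds are ratios of geometric means. limma (3.58.1, R 4.3.3, lmFit, eBayes with trend, two-sided, Benjamini-Hochberg) was fitted to 22519 probe sets whose mean log2 signal reached the median, without controls. It was also run on simulated data with planted changes larger than those of the members. That run does not show whether changes of the members' size would be called. An exact permutation test of 3 arrays against 3 cannot go below 0.1. Alternatives changed the filter, scaling, added constant, trend, weights and arrays.

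Named genes were all members, all listed genes of the pathway and marker lists, listed genes with the ribosome terms above, and the 3 genes most like the members. Some genes that this rule names are not reported here. List symbols were updated through RefSeq (GRCm38); Noc2 was dropped because it is a synonym of Rph3al there. A gene with several probe sets is represented by 1. The motifs were chosen with the sequences in view. The number of arrays limits the precision. Tables and figures used Python 3.11.15, pandas 2.3.3, numpy 2.4.6 and matplotlib 3.10.9.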

Additional observations from a re-analysis of the deposited data

How the results depend on the processing

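Each member kept its direction in the RMA signals with each array left out in turn, and in the MAS5 signals as deposited, centred on the array median, with 16 added before log2, or with each array left out. The exception was Rps28, which was -0.000326 log2 after quantile normalization of the MAS5 signals (0.0177 log2 after centring), against 0.04 log2 as deposited. Leaving out an array could not change a direction where the groups lay apart. That was so for every member in RMA and for 4 members in MAS5. The difference of Exosc4 was -0.16 log2 in RMA and -0.0547 log2 in MAS5, -0.0933 log2 after quantile normalization, -0.0811 log2 after centring and -0.0540 log2 with 16 added. Imp4 was -0.38 log2 in RMA and -0.55 log2 in quantile-normalized MAS5. The cause of these shifts was not tested. The mean pairwise r of the lower members was 0.43 in RMA, 0.11 in MAS5 and 0.15 to 0.59 with 1 array left out. limma called 0 probe sets under every alternative, with 539 to 2311 at an unadjusted p under 0.05 and smallest adjusted p-values of 0.144 to 0.9996. The share of probe sets whose groups do not overlap in MAS5 was 11.3%, and 9.82% to 12.4% under the alternatives. No paired analysis was possible because the replicate numbers were given in order of deposit and pair no arrays. The precision is limited by the 3 arrays per group, and Ddx54, Spata5 and Mtrex, of which Spata5 and Mtrex lay below the level filter, had opposite directions in RMA and MAS5.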
